A study of Mus musculus with 6 samples.

Results

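Interferon-stimulated genes are described here across NKp46+ cells of 3 mouse tissues. The set has 39 genes, named from the known interferon response, and was found among 31410 gene symbols on the arrays by symbol, with older synonyms counted (G1p2 for Isg15, Prkr for Eif2ak2). By role it holds 10 sensors and signalling proteins, 20 antiviral effectors, 3 nucleic acid enzymes that limit sensing, 5 GTPases induced by interferon-gamma, and 1 chemokine. A probe was found for 38 of the 39. The exception was Xaf1, for which no probe carried the symbol.

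The cells were sorted as positive for CD45, NKp46 and, as the labels spell it, NK11, and negative for CD3, from intestine (lamina propria), skin and spleen. All mice were 12-week-old males of the RAG-2-KO strain on C57BL/6, so that, per the labels, all 3 groups share the loss of RAG-2, the protein that T and B cells need to rearrange their receptor genes. The probe of Rag2 was dim, with signals of 7.84 and 13.2 in intestine, 0.341 and 9.50 in skin, and 2.88 and 6.81 in spleen, and was detected on 4 arrays. Whether it lies in the deleted part of the gene is not known here, so it does not check the deletion. The NKp46 protein triggers killing by natural killer (NK) cells and is also carried by some innate lymphoid cells. Each tissue was measured on 2 Illumina mouse BeadChip arrays, 6 in all, with replicate 1 of every tissue on slide 1 and replicate 2 on slide 2. No label says whether the 2 samples of a tissue came from separate mice or from pools, so the p-values rest on a spread between samples that may be only technical.

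Interferons are secreted proteins that warn cells of infection. Type I interferons bind the IFNAR receptor and act through JAK1, TYK2 and a complex that holds STAT2 and IRF9 and binds the interferon-stimulated response element of target promoters. Interferon-gamma, which NK cells themselves secrete, binds the IFNGR receptor and acts through JAK1 and JAK2 on gamma-activated sequences. Many target genes carry either site or both.

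The promoters of 6 members are shown because their transcripts lay on opposite sides of the intestine-to-spleen comparison while their promoters hold the same letters. They are RefSeq sequences of build GRCm38.p6 from 250 bases before to 50 after the gene start, written 5′ to 3′ along the gene. Capitals mark every match to GAAANNGAAA, the core of the interferon-stimulated response element, on either strand, and matches that overlap run together. Isg15 (chr4:156200769-156201068, minus strand), with 3 overlapping matches, Cxcl10 (chr5:92348840-92349139, minus strand), with 1, and Igtp (chr11:58199306-58199605, plus strand), with 1, were higher in intestine.
Isg15: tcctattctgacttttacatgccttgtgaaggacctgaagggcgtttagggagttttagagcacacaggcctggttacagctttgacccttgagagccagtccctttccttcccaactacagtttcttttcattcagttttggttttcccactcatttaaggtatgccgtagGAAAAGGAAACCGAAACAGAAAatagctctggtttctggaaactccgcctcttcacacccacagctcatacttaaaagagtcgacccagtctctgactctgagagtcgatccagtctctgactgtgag
Cxcl10: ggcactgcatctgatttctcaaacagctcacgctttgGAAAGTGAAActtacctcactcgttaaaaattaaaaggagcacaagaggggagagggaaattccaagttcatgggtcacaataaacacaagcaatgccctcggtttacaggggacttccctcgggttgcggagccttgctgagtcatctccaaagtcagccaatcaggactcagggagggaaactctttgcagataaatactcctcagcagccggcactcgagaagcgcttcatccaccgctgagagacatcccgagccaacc
Igtp: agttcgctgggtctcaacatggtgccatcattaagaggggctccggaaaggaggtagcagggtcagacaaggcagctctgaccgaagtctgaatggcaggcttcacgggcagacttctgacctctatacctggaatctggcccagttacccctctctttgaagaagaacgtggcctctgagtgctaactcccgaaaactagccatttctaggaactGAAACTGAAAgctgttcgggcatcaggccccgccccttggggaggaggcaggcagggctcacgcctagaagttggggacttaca
Eif2ak2 (chr17:78882523-78882822, minus strand), with 1 match, Ifit3 (chr19:34583279-34583578, plus strand), with 2 matches on the opposite strand, and Irgm1 (chr11:48871371-48871670, minus strand), with 2 overlapping matches, were lower in intestine.
Eif2ak2: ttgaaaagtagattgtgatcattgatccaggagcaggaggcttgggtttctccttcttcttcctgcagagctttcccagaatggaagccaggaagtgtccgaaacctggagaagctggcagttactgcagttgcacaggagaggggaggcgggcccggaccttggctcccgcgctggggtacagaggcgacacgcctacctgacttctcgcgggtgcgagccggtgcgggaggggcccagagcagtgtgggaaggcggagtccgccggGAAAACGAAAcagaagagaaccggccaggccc
Ifit3: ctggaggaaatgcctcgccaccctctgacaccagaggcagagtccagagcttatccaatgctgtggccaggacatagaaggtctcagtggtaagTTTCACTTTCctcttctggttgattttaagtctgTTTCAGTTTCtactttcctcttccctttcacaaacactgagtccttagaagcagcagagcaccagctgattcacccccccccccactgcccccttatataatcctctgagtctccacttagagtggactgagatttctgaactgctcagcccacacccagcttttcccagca
Irgm1: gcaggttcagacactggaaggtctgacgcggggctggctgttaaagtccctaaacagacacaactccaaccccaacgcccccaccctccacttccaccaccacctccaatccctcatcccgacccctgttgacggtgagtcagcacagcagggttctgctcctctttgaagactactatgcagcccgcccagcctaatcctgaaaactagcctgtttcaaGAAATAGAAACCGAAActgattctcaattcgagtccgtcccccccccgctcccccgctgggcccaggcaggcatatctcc

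A promoter was at hand for 33 of the 39 members. The core letters GAAANNGAAA occurred in 17 of these (51.5%), against 1079 of all 27025 genes in the same table (3.99%). The gamma-activated letters TTCNNNGAA, which read the same on both strands, occurred in 12 of 33 members (36.4%), against 9.55% of all genes. Among members that passed the test between intestine and spleen, the core was in 6 of the 12 promoters of higher genes (Bst2, Cxcl10, Gbp3, Ifitm3, Igtp, Isg15) and in 4 of the 9 available promoters of lower genes (Ddx58, Eif2ak2, Ifit3, Irgm1). The gamma-activated letters were in 5 of 12 and 4 of 9. Of 5 members detected on no array that had a promoter, 4 held the core (Ifih1, Ifit1, Oas1a, Oas3). These letters therefore stood in promoters of members that were high, low and undetected in intestine. A match describes the letters only and is no evidence of binding.

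**Figure D1:**
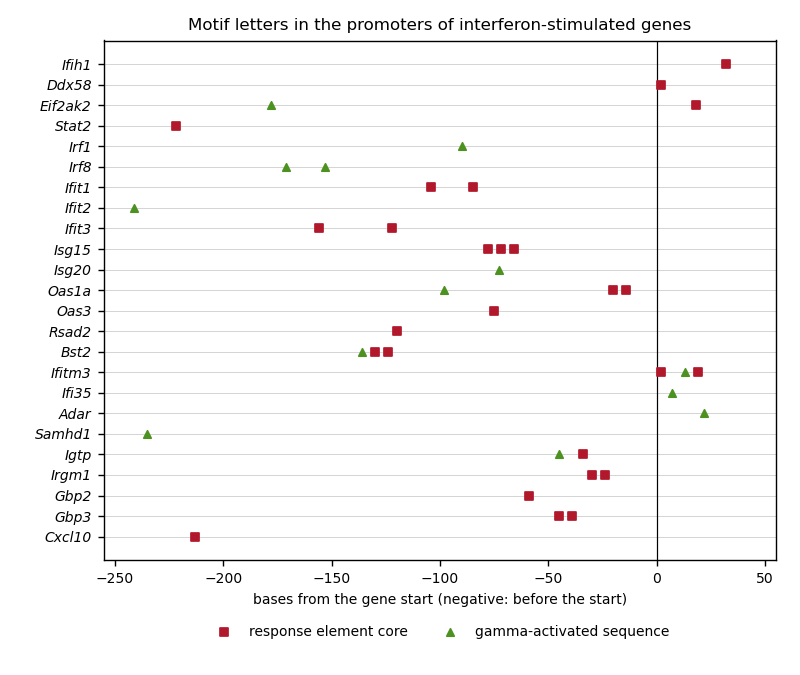
Positions of the response element core (GAAANNGAAA, red squares) and the gamma-activated sequence (TTCNNNGAA, green triangles) in the promoters of members that hold at least one of them, in bases from the gene start, with each member on its own row. Matches lie on both sides of the start, and the 3 cores of Isg15 begin 78, 72 and 66 bases before it.

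The deposited signal of a probe is a background-subtracted bead intensity, scaled to the same mean of 83.1 on every array, and a probe is called detected where its detection p is under 0.01. Between 15196 and 16549 of 46643 probes were detected on the intestine and skin arrays, and 18266 and 18530 on the spleen arrays. Differences are given as log2 values with their standard error (SE), after an offset of 16 and quantile normalization. They understate the change of dim genes and are not the plain ratio of the printed signals. Over all 13407 genes tested, the median difference between intestine and spleen was -0.04 after quantile normalization and -0.25 with the deposited scaling. Adjusted p-values are those of limma over all genes tested, with a threshold of 0.05. The test could be run for 29 members, whose probe was detected on both arrays of at least 1 tissue, and 10 members were not tested.

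Against spleen, 24 of the 29 tested members differed in intestine, 12 of them higher and 12 lower, beside a background of 49.4% of all genes, 21% higher and 28.4% lower. In skin 7 of the 29 differed from spleen, 1 higher and 6 lower. Only the total was close to the background of 24.6%, which was 13.2% higher and 11.4% lower. Between intestine and skin 22 differed, 13 higher and 9 lower in intestine, beside a background of 39.4% (16.4% higher and 23% lower). Because a gene enters the test through the tissue where it is high, the 23 members detected on all 6 arrays are the fairer count. Of these, 9 were higher and 10 lower in intestine than in spleen (51.9% of the 9364 such genes passed, 23.1% higher and 28.8% lower), 1 was higher and 5 were lower in skin than in spleen (24.5% passed, 14.5% higher and 10% lower), and 10 were higher and 8 lower in intestine than in skin (45.4% passed, 18% higher and 27.4% lower). Their median differences were -0.07, -0.22 and -0.04 in these comparisons, beside -0.02, 0.05 and -0.10 for all such genes. The members had no common direction in intestine. Some were up to 6.05-fold higher and others up to 3.06-fold lower than in spleen on the same arrays. In these bulk samples, fewer cells of a type and less RNA per cell cannot be told apart.

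Every passing member had all 4 differences between arrays of the 2 tissues on one side, and the same sign within slide 1 and within slide 2. With 2 arrays per tissue the test itself favours such genes, so this is no separate evidence for the calls. The comparisons of intestine and of skin with spleen share the spleen arrays, and the skin calls depended on them. Without spleen replicate 2, 0 of the 7 members that differed in skin passed limma's test, and 7 members were at an unadjusted p under 0.05. Without spleen replicate 1 the calls of Rsad2, Bst2 and Ifitm1 remained, without skin replicate 1 those of Irf1 and Bst2, and without skin replicate 2 all but Irf1 and Ifit2. With the deposited scaling 14 members passed in skin, 1 higher and 13 lower.

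**Figure D2:**
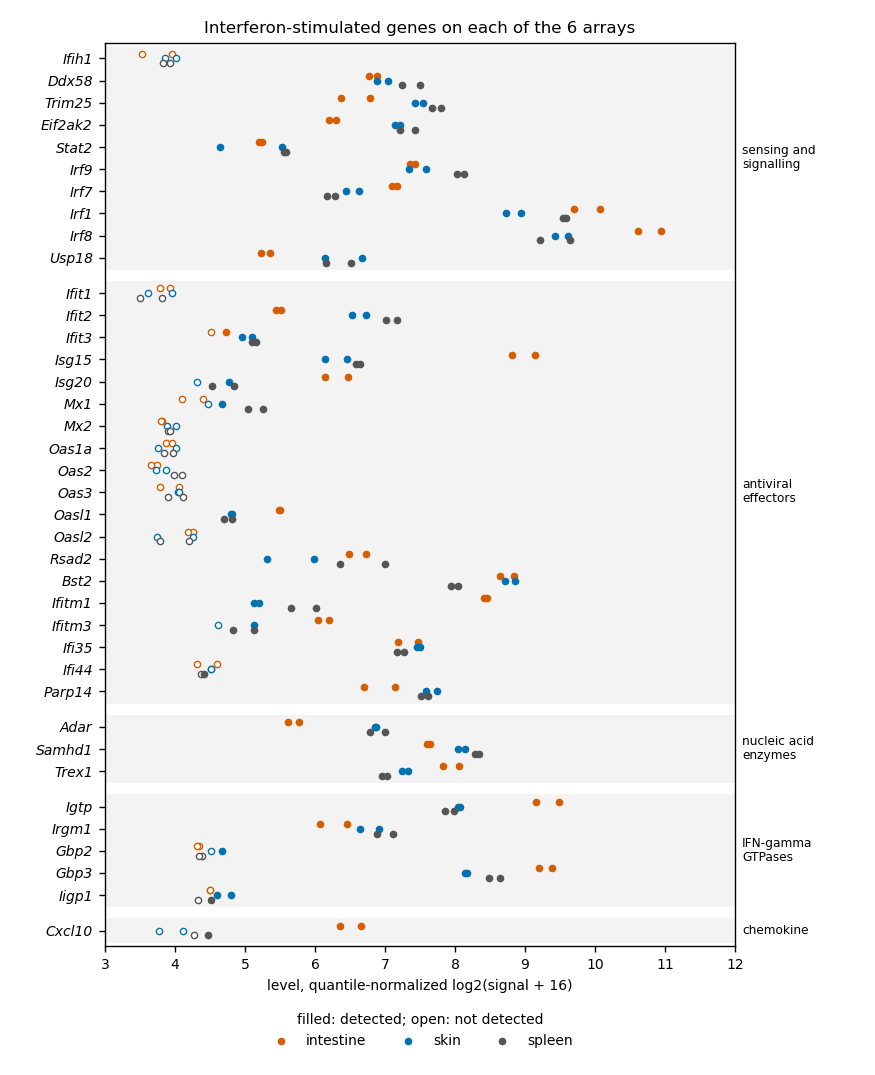
Normalized level of each member (log2 of signal plus 16) on each of the 6 arrays, with the arrays of intestine in orange, skin in blue and spleen in grey, ordered by role. Filled points were detected and open ones were not. Isg15, Ifitm1 and Cxcl10 stand far to the right in intestine, while Ifit2, Eif2ak2 and Adar stand to the left there.

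The sensors begin the pathway inside the cell. Ddx58, which encodes the RNA sensor RIG-I, had signals of 79.9 and 87.1 in intestine and 98.2 and 114 in skin, against 161 and 194 in spleen. Its difference between intestine and spleen was -0.55 ± 0.15 (adjusted p = 0.0119), with no overlap of the arrays, and between skin and spleen -0.41 ± 0.15 (adjusted p = 0.0674, or 0.0428 with the slide as a block). Its other probes disagreed with each other, at -0.64 and 0.60 between intestine and spleen, and the call was lost when the probes were averaged and without spleen replicate 2. Ifih1, the gene of the related sensor MDA5, was detected on no array.

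Trim25, the ubiquitin ligase that activates RIG-I, had signals of 56.1 and 79.4 in intestine and 151 and 170.2 in skin, against 220.3 and 240.3 in spleen. The intestine arrays were below all others, and the differences were -1.16 ± 0.16 against spleen (adjusted p = 0.000284) and -0.92 ± 0.16 against skin (adjusted p = 0.00145). Eif2ak2, which encodes PKR, the kinase that stops translation on double-stranded RNA, followed the same order of tissues. Its signals were 52.5 and 48.1 in intestine and 122 and 131 in skin, against 186 and 158 in spleen, with differences for intestine of -1.07 ± 0.14 against spleen (adjusted p = 0.000165) and -0.93 ± 0.14 against skin (adjusted p = 0.000481). Between skin and spleen neither gene passed (-0.24 and -0.14, adjusted p = 0.29 and 0.47), although the skin arrays lay below the spleen arrays for both. With the deposited scaling both passed there (Trim25 at -0.48, adjusted p = 0.0388, and Eif2ak2 at -0.40, adjusted p = 0.0482).

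Of the DNA and RNA sensing adaptors, a list of 13 genes that are not members, 9 were tested. Between intestine and spleen 2 were higher and 3 lower, beside 21% and 28.4% of all genes. Traf6, a ubiquitin ligase of the Toll-like receptor pathway, had 199.5 and 194 in intestine and 51.5 and 51.7 in skin, against 33 and 34.6 in spleen, but its other detected probes gave 0.47 and -0.09 between intestine and spleen beside 2.46 for the probe used. Sting1, the adaptor of DNA sensing, was lower in intestine than in spleen (-0.92 ± 0.17, adjusted p = 0.00155), as was Mavs, the adaptor of RIG-I (-0.46 ± 0.14, adjusted p = 0.021). In skin 2 of the 9, Traf6 and Ticam1, were higher than in spleen, beside 13.2% of all genes.

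The transcription factors did not move together. Irf9, the DNA-binding subunit of the type I complex, had signals of 128 and 135 in intestine and 141 and 176 in skin, against 304 and 284 in spleen. Intestine and skin lay below spleen on every array, with differences of -0.68 ± 0.14 in intestine (adjusted p = 0.00285) and -0.62 ± 0.14 in skin (adjusted p = 0.0147). Stat2, its partner, was dim, with 17.8 and 17.9 in intestine, 10.4 and 29 in skin, and 39.8 and 37.3 in spleen. Its skin arrays were far apart, and it passed in no comparison after quantile normalization. With the deposited scaling Stat2 was lower than spleen in intestine (-0.69, adjusted p = 0.0144) and in skin (-0.66, adjusted p = 0.0297).

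Irf7, which amplifies type I interferon production, went the other way, with 111 and 103 in intestine and 67.6 and 82.6 in skin, against 69.9 and 75 in spleen. The intestine arrays were above the other 4, by 0.90 ± 0.14 against spleen (adjusted p = 0.000472) and 0.60 ± 0.14 against skin (adjusted p = 0.00618). Irf8, which NK cells, dendritic cells and monocytes use in their development, had signals of 1598 and 1935 in intestine and 647 and 749 in skin, against 633 and 823 in spleen. It was 1.35 ± 0.18 higher in intestine than in spleen (adjusted p = 0.000223), while skin and spleen arrays overlapped.

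Irf1, a factor that interferon-gamma induces, was lowest in skin. Its signals were 1055 and 768 in intestine and 456 and 397 in skin, against 789 and 792 in spleen. The difference between skin and spleen was -0.73 ± 0.16 (adjusted p = 0.0123), and intestine was above skin by 1.06 ± 0.16 (adjusted p = 0.00055), with 3 further probes at 0.97 to 1.19 in the second comparison. Between intestine and spleen the deposited signals of Irf1 overlapped, and its difference of 0.33 ± 0.16 did not pass (adjusted p = 0.112). Usp18, which removes ISG15 from proteins and damps the IFNAR receptor, had 20.3 and 18.4 in intestine and 52.3 and 85.4 in skin, against 69 and 90.6 in spleen, and was lower in intestine than in either other tissue (-1.05 ± 0.19 and -1.12 ± 0.19, adjusted p = 0.00152 and 0.00124).

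**Figure D3:**
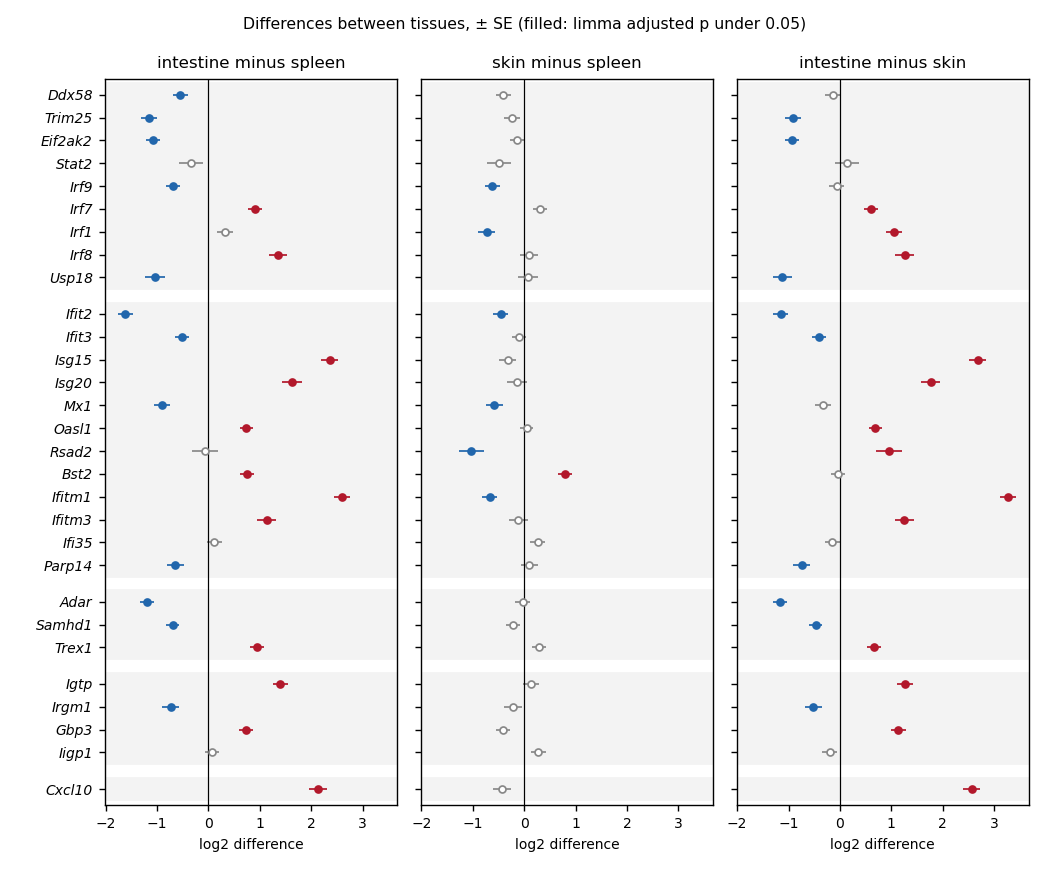
Log2 difference ± SE of each of the 29 tested members for intestine minus spleen, skin minus spleen and intestine minus skin, ordered by role. Filled red points are higher and filled blue points lower at a limma adjusted p under 0.05, and open grey points did not pass. Intestine has 12 members on each side of 0 against spleen, and skin has 1 higher and 6 lower.

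Among the 20 antiviral effectors 12 were tested, and they held the largest member differences in both directions between intestine and spleen. Ifitm1, a membrane protein that blocks the entry of viruses, had signals of 313 and 292 in intestine and 19.9 and 19.9 in skin, against 43.3 and 59.6 in spleen. The 3 tissues did not overlap. Intestine was 2.60 ± 0.15 above spleen (6.05-fold, adjusted p = 1.15e-06) and 3.27 ± 0.15 above skin (9.64-fold, adjusted p = 4.25e-07), and skin was lower than spleen (-0.67 ± 0.15, adjusted p = 0.014). A second probe of Ifitm1 that was detected on both arrays of intestine and of spleen gave 2.23 between them, and 2 more were detected on both intestine arrays but on 1 and 0 spleen arrays.

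Its relatives were highest in intestine as well. Ifitm3 had 41.7 and 47.8 in intestine and 9.89 and 18.2 in skin, against 13.2 and 22.1 in spleen, and was 1.14 ± 0.19 above spleen in intestine (adjusted p = 0.000752). Ifitm2, which is no member but belongs to the same family, had 737 and 771 in intestine and 23.4 and 29.1 in skin, against 52.2 and 58.4 in spleen, a difference of 3.71 ± 0.14 between intestine and spleen (adjusted p = 1.44e-07). Whether the probes tell these related transcripts apart was not tested.

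Isg15, a ubiquitin-like protein that is joined to other proteins and also secreted, had signals of 535 and 389.6 in intestine and 51.7 and 70.9 in skin, against 102 and 95.9 in spleen. Both intestine arrays were far above the others, by 2.36 ± 0.16 against spleen (5.15-fold, adjusted p = 3.29e-06) and 2.68 ± 0.16 against skin (6.42-fold, adjusted p = 1.96e-06). Isg20, an exonuclease that degrades viral RNA, had 45.9 and 60.8 in intestine and 4.81 and 11.9 in skin, against 6.58 and 13.1 in spleen. It was 1.62 ± 0.19 higher in intestine than in spleen (adjusted p = 0.000105). Isg15 was thus high in the tissue where Usp18, its protease, was low.

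Oasl1, which in mouse restrains translation of Irf7, was dim but higher in intestine (24.1 and 24.2) than in skin (13.7 and 12.3) or spleen (9.86 and 12.4), with a difference of 0.74 ± 0.13 against spleen (adjusted p = 0.00114). Bst2, which encodes tetherin, the protein that holds budding virions on the cell surface, was the one member that passed above spleen in both other tissues. Its signals were 424 and 345 in intestine and 430.0 and 396 in skin, against 285 and 268 in spleen. The differences from spleen were 0.76 ± 0.14 in intestine (adjusted p = 0.0015) and 0.80 ± 0.14 in skin (adjusted p = 0.00519), and the arrays of intestine and skin overlapped.

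Other effectors lay on the low side in intestine. Ifit2, one of the proteins that bind foreign RNA and block its translation, had signals of 22.5 and 24.8 in intestine and 73 and 89.1 in skin, against 136 and 151 in spleen. The tissues were ordered without overlap. The differences of Ifit2 from spleen were -1.61 ± 0.14 in intestine (3.06-fold lower, adjusted p = 1.31e-05) and -0.46 ± 0.14 in skin (adjusted p = 0.0394), and between intestine and skin -1.16 ± 0.14 (adjusted p = 0.000141). Its relative Ifit3 was dim, with 8.56 and 7.35 in intestine and 19.2 and 14.9 in skin, against 21.2 and 23.2 in spleen. Ifit3 passed in intestine against spleen (-0.51 ± 0.14, adjusted p = 0.0128), but not without either spleen array nor with median scaling. Ifit1 was detected on no array.

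Mx1 encodes a GTPase active against influenza virus, in which C57BL/6 mice carry a deletion. It was detected on both spleen arrays (19.5 and 26.7) and 1 skin array (10.3, with 7.28 on the other), but on neither intestine array (4.22 and 1.2). This probe entered the test through spleen, the only tissue where both arrays detected it, so the filter favoured lower values elsewhere. With that limit, the level of Mx1 was at least 1.51-fold lower in intestine than in spleen (adjusted p = 0.00114). Skin was lower than spleen as well (-0.58 ± 0.16, adjusted p = 0.0283), although the second detected probe of Mx1 gave -0.03 there. Rsad2, which encodes viperin, an enzyme that makes a chain-terminating nucleotide, was lowest in skin. Its signals were 76.9 and 61.3 in intestine and 23.6 and 46.4 in skin, against 80.7 and 133 in spleen, with skin at -1.03 ± 0.25 against spleen (adjusted p = 0.0192) and intestine at 0.96 ± 0.25 against skin (adjusted p = 0.0125). The intestine value of Rsad2 against spleen was -0.07 ± 0.25, and the call against skin was lost without intestine replicate 1 and without skin replicate 1.

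Parp14, an ADP-ribosyltransferase that interferon induces, had 74.8 and 106 in intestine and 172 and 196 in skin, against 198 and 212 in spleen. Intestine was lower than spleen (-0.65 ± 0.17, adjusted p = 0.00934, not passing without spleen replicate 2) and than skin (-0.75 ± 0.17, adjusted p = 0.00529), where the other probe gave 0.24. Ifi35 was level, with 113 and 138 in intestine, 160.5 and 157 in skin, and 153 and 164 in spleen, and its 0.11 ± 0.14 between intestine and spleen turned to -0.31 with the deposited scaling without passing in either.

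The remaining effectors gave no test. Mx2, Oas1a, Oas2, Oas3 and Oasl2 were detected on no array, with signals between -4.16 and 3.47. Oas1a, Oas2 and Oas3 encode synthases of the messenger that activates RNase L. Ifi44 was detected on 1 spleen array only, at 4.67. These members have no measured order between tissues.

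The 3 nucleic acid enzymes keep the cell's own nucleic acids from setting off its sensors. Against spleen 1 was higher and 2 were lower in intestine, beside 21% and 28.4% of all genes. Adar, which edits adenosine to inosine in double-stranded RNA, had signals of 27.3 and 32.4 in intestine and 95.4 and 99.7 in skin, against 114 and 134 in spleen. It was lower in intestine than in spleen (-1.20 ± 0.14, adjusted p = 9.67e-05, with -0.44 for its other probe) and than in skin (-1.17 ± 0.14, adjusted p = 0.000141). Between skin and spleen the difference of Adar did not pass (-0.03 ± 0.14).

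Samhd1, which breaks down deoxynucleotides, had 154 and 156 in intestine and 239.7 and 262 in skin, against 349.6 and 335 in spleen, and was lower in intestine than in spleen (-0.69 ± 0.13, adjusted p = 0.00162). A second probe of Samhd1 gave 0.19 in that comparison, and the call was lost when probes were averaged. Trex1, the exonuclease that clears DNA from the cytosol, had 221 and 185 in intestine and 139.7 and 134 in skin, against 131 and 137 in spleen. Both intestine arrays lay above the other 4, by 0.95 ± 0.14 against spleen (adjusted p = 0.000375) and 0.65 ± 0.14 against skin (adjusted p = 0.00403).

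The GTPases that interferon-gamma induces act on vacuoles that hold pathogens. Of 4 tested, 2 were higher and 1 was lower in intestine than in spleen, beside 21% and 28.4% of all genes. Igtp had 542 and 651 in intestine and 246 and 244 in skin, against 274 and 253 in spleen, and was 1.40 ± 0.15 higher in intestine than in spleen (2.64-fold, adjusted p = 5.01e-05) and 1.26 ± 0.15 higher than in skin (adjusted p = 0.000119). Gbp3, listed under the symbol Gbp4 on this array design, had 642 and 530.3 in intestine and 258 and 268 in skin, against 431 and 385 in spleen. Its 3 tissues did not overlap, with 0.73 ± 0.14 for intestine against spleen (adjusted p = 0.00168), 1.14 ± 0.14 for intestine against skin (adjusted p = 0.000144), and -0.40 ± 0.14 for skin against spleen (adjusted p = 0.0558, or 0.0454 with the slide as a block).

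Irgm1, which regulates the other GTPases of Igtp's family, lay on the low side, with 60.5 and 42.7 in intestine and 101 and 83 in skin, against 146 and 121 in spleen. Its difference between intestine and spleen was -0.74 ± 0.17 (adjusted p = 0.00592) and was lost without spleen replicate 1. Its -0.52 ± 0.17 between intestine and skin (adjusted p = 0.037) passed in 11 of 17 alternative settings. Iigp1, read by a probe with the symbol 2900074L10Rik, had signals of 3.5 to 13.4 and passed in no comparison after quantile normalization. That probe was detected on both skin arrays and on spleen replicate 2 only, and its other probes on no array. With median scaling Iigp1 passed above spleen, by 0.56 in intestine (adjusted p = 0.00753), where it was undetected, and by 0.65 in skin (adjusted p = 0.00698). Gbp2 was detected on 1 skin array only, at 10.1.

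Cxcl10, the chemokine that draws CXCR3-bearing lymphocytes and that both kinds of interferon induce, was detected on both intestine arrays (72.5 and 55.2), on no skin array (-3.39 and 1.49), and on 1 spleen array (5.67, with 2.87 on the other). It was 2.13 ± 0.17 higher in intestine than in spleen (4.38-fold, adjusted p = 7.94e-06) and at least 3.84-fold higher than in skin (adjusted p = 3.03e-06). Cxcl10 entered the test through intestine, the only tissue where both arrays detected it, so the filter favoured this direction. Skin and spleen were both at or near background and were not set in order.

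Upstream of the members stand the interferons and their receptors. Of 18 interferon genes only Ifng and the dim Ifna6 could be tested, and Ifnb1 was detected on no array. Ifna6 was detected on both skin arrays (11.3 and 8.35), on 1 intestine array and on no spleen array. It passed above spleen in skin (at least 1.17-fold, adjusted p = 0.0124) and in intestine (at least 1.16-fold, adjusted p = 0.00454), near the limit of detection. Ifna6 entered the test through skin, so the filter favoured a value above spleen there. Ifng had signals of 3829 and 2762 in intestine and 2036 and 1886 in skin, against 960.5 and 1471 in spleen, and the tissues did not overlap. It was 1.47 ± 0.22 higher in intestine (adjusted p = 0.000436) and 0.77 ± 0.22 higher in skin (adjusted p = 0.033) than in spleen.

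Of 18 receptor and proximal signalling genes that are not members, 16 were tested, not all of them named here, and 6 were higher and 7 lower in intestine than in spleen, beside 21% and 28.4% of all genes. In the interferon-gamma branch, Ifngr1, its ligand-binding receptor chain, had 2131 and 1495 in intestine and 476 and 582 in skin, against 729 and 642 in spleen (1.46 ± 0.17 for intestine against spleen, adjusted p = 9.82e-05). Jak2, the kinase of that receptor, had 1598 and 1015 in intestine and 234 and 269.7 in skin, against 307 and 311 in spleen (2.20 ± 0.17, adjusted p = 7.84e-06), while a second probe was dim and detected on no spleen array. Both genes were far above the other tissues on both intestine arrays.

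In the type I branch, Ifnar2, a chain of the receptor, had 72.9 and 96.2 in intestine and 251 and 266 in skin, against 309.7 and 269 in spleen (-1.22 ± 0.16, adjusted p = 0.000162). Tyk2, the kinase bound to the other chain, was lower as well (-0.80 ± 0.14, adjusted p = 0.000975), and so was Jak1, which serves both branches (-0.98 ± 0.17, adjusted p = 0.00125). Il10rb, a chain of the type III interferon receptor and of the receptors for interleukin-10 and interleukin-22, was also lower (-1.65 ± 0.13, adjusted p = 1e-05). Ifnlr1, the other chain of the type III receptor, was dim, with 12.3 and 13.8 in intestine and 15.9 and 13.4 in skin, against 6.71 and 11 in spleen, and its 0.31 ± 0.14 between intestine and spleen did not pass (adjusted p = 0.0868). The receptor genes Ifnar1 and Ifngr2 were not tested, so the type I and the interferon-gamma receptor are each represented by 1 chain.

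Other factors of this list that were lower in intestine than in spleen were Irf3 (-0.84 ± 0.18), which switches on the Ifnb1 gene, Irf2 (-1.08 ± 0.16), an antagonist of Irf1, and Pias1 (-1.02 ± 0.16), a SUMO ligase. Higher were Irf5 (1.67 ± 0.13), Stat3 (2.44 ± 0.13) and Socs3 (2.65 ± 0.23). Socs1, which restrains JAK kinases, was 2.46-fold higher (adjusted p = 0.000293). Socs3, which restrains STAT3, had 1637 and 895 in intestine and 583 and 621 in skin, against 184 and 254 in spleen, and was also higher in skin than in spleen (1.67 ± 0.23, adjusted p = 0.0017). Skin differed from spleen in 4 of the 16, beside 24.6% of all genes, with Socs3 and Ptpn6 higher and Irf2 and Pias1 lower.

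A further list of 78 interferon-stimulated genes that are not members had 51 tested genes. Between intestine and spleen 7 were higher and 19 lower, 26 of 51 in all. The background was 49.4% of all genes, 21% higher and 28.4% lower, and the median of the list was -0.18. Between intestine and skin 6 were higher and 24 lower, beside 39.4% of all genes, 16.4% higher and 23% lower. The median of the list there was -0.42, beside -0.08 for all genes. Among the lower ones in intestine were Samd9l, with 436 and 513 in intestine and 1345 and 1634 in skin, against 1319 and 1528 in spleen, and Apobec3, a deaminase that acts on retroviruses, with 33.2 and 51.7 in intestine and 102 and 94.8 in skin, against 167 and 190.2 in spleen. Among the higher ones was Cd274, which encodes the inhibitory ligand PD-L1, with 1797 and 1864 in intestine and 472 and 479 in skin, against 336 and 363 in spleen (2.49 ± 0.13, adjusted p = 7.3e-07), and Casp4, the caspase that senses bacterial lipopolysaccharide (1.40 ± 0.15, adjusted p = 5.69e-05).

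In skin, 8 of these 51 genes were higher and 6 lower than in spleen, close to the background of 24.6% (13.2% higher and 11.4% lower). The lower ones included Gbp5 (-0.92 ± 0.14, adjusted p = 0.00279) and Irgm2 (-0.74 ± 0.14, adjusted p = 0.00736), GTPases of the same families as Gbp3 and Irgm1. Gbp5 had 72.2 and 68.1 in intestine and 27.6 and 32.8 in skin, against 96.1 and 81.7 in spleen, with skin lowest as for Irf1 and Rsad2. Lgals3bp was higher in skin than in spleen, with 707 and 721 against 515 and 462 (0.72 ± 0.13, adjusted p = 0.00662).

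**Figure D4:**
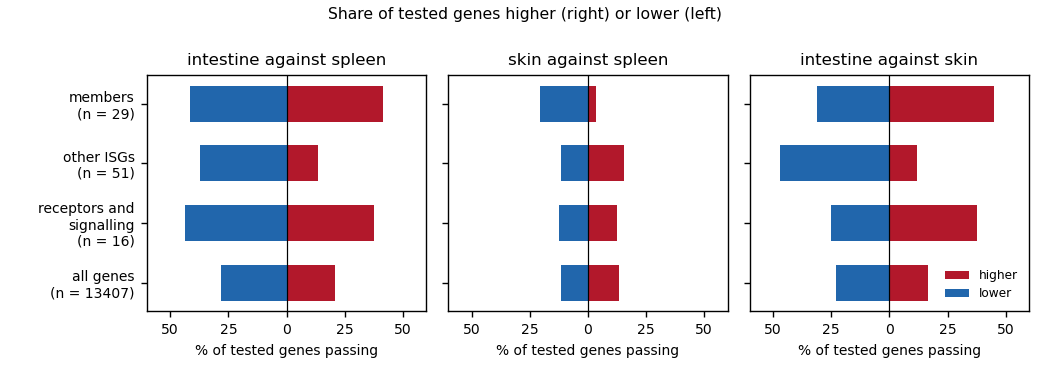
Share of tested genes that were higher (red, to the right) or lower (blue, to the left) at a limma adjusted p under 0.05, for the 29 tested members, 51 other interferon-stimulated genes, 16 receptor and signalling genes, and all 13407 genes, in each comparison. Members and receptor genes split to both sides in intestine against spleen, and the other interferon-stimulated genes lean to the lower side. In skin against spleen the 3 lists passed in total about as often as all genes, with 1 member higher and 6 lower.

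Genes listed as markers of cell types differed between the tissues, and whether other cells carried them was not tested. Of 17 macrophage and monocyte markers 12 were tested. Against spleen 11 were lower in intestine and 10 in skin, beside 28.4% and 11.4% of all genes. Adgre1, Lyz2, Mpeg1, C1qa, C1qb, C1qc and Vcam1 entered the test through spleen, the only tissue that detected them, so the filter fixed their direction. Of the 2 markers detected on all 6 arrays, 1 was lower in intestine and 0 in skin. In the sums given here and below, a signal was set to 0 on an array that did not detect it. The summed signals of the 17 markers were 99.1 to 119.9 in intestine and 303 to 331 in skin, against 699.9 to 720.5 in spleen. Cx3cr1 (217 and 207) and Ccr2 (170 and 153) gave the largest spleen signals, and Ccr2 (121 and 143) the largest in skin. Cd68 passed in neither comparison with spleen, and Cd14, Csf1r, Fcgr1 and Marco were detected on no array. The sums of 10 plasmacytoid dendritic cell markers were 343 to 381 in intestine and 388 to 458 in skin, against 713 to 746 in spleen, with Klk1, Ly6d and Spib detected on no array. Of the 7 tested, 3 were higher and 3 lower in intestine than in spleen, beside 21% and 28.4% of all genes, with a median of 0.26. Ccr9 entered the test through intestine, the only tissue that detected it, so the filter fixed its direction. Of the 3 detected on all 6 arrays, 1 was higher and 2 were lower, beside 23.1% and 28.8% of such genes, with a median of -0.59. Tcf4 (226 and 242 in intestine, against 445.5 and 459 in spleen) and Cox6a2 (24 and 33.2, against 190.2 and 150.2) made up most of the spleen sums, while Pacsin1 was higher in intestine (1.57 ± 0.14, adjusted p = 2.06e-05). Of the dendritic cell list, 5 of 7 tested genes were higher in intestine than in spleen, beside 21% of all genes. They were H2-Ab1, H2-Aa, H2-Eb1, Cd74 and Zbtb46. Batf3 was lower (-0.98 ± 0.19, adjusted p = 0.00215), but it entered the test through spleen, the only tissue where both arrays detected it. Itgax did not pass. Cd209a, Clec9a, Flt3 and Xcr1 were detected on no array. The sums of 9 erythroid and platelet markers were 688 to 1105 in intestine and 779 to 1025 in skin, against 11702 to 17611 in spleen. Of 11 tested NK cell genes, 9 were lower in intestine than in spleen, beside 28.4% of all genes, and Gzmb was detected on no array. Of the 10 detected on all 6 arrays, 8 were lower, beside 28.8% of such genes. The sums of the list were 13453 to 15497 in intestine and 21973 to 23318 in skin, against 22973 to 23705 in spleen. Nkg7 and Klrd1 gave the largest signals. Ncr1, the gene of the sorted marker NKp46, was detected on all 6 arrays, with 10.8 and 14.7 in intestine and 33.1 and 32.4 in skin, against 88.2 and 52.9 in spleen. The sums of 9 T cell markers were 721 to 1031 in intestine and 674 to 716 in skin, against 767 to 850.4 in spleen, in cells sorted as negative for CD3. Cd3e, Cd4, Cd5 and Cd6 were detected on no array, Cd8a on the intestine arrays only, and Cd3d, Cd3g, Cd8b1 and Lat on all 6. Of the 5 tested, 2 were higher and 2 lower in intestine than in spleen, beside 21% and 28.4% of all genes. Cd8a entered the test through intestine, so the filter fixed its direction. Of the 4 detected on all 6 arrays, 1 was higher and 2 were lower, beside 23.1% and 28.8% of such genes. Cd3g had 312 and 597 in intestine and 54.6 and 59.4 in skin, against 109 and 81.4 in spleen (2.35 ± 0.25 for intestine against spleen, adjusted p = 5.42e-05). What part cell make-up has in the differences of the interferon-stimulated genes was not tested.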

How the data were processed

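RNA of sorted NKp46+ cells, 2 samples per tissue and 6 in all, was purified on micro columns, then amplified with biotin labelling, per the labels' protocols. BeadStudio 1.5.1.3 is named by the submitters' processing notes. The deposited intensity of each of 46643 probes was already background-subtracted (30.7% to 32.7% below 0) and scaled, as its values show. The deposited detection p-value is named per the file headers, without its method. A series table holds the same deposited intensities unscaled, 1.65 and 1.58 times the scaled ones in spleen, 0.995 and 0.612 times in intestine and 0.526 and 0.643 times in skin, and was an alternative source. Fewer probes were detected on the intestine and skin arrays, so dim genes are measured less well there.

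Of the probes, 20155 carried a current symbol of the RefSeq gene table (GRCm38.p6, used for names and promoters), 13051 an older one that was translated, 203 an ambiguous one, 11506 one kept as in the file, 1 was set by hand (Gbp4 to Gbp3, since the array lists the present Gbp4 under an older name), and 1727 had none. An offset of 16 was added, log2 taken and the arrays quantile normalized. Kept were probes that both arrays of 1 tissue or more detected at p under 0.01 (18583, of which 18187 named), and the probe with the highest mean deposited signal stood for a gene. All 6 arrays were fitted with limma 3.58.1 in R 4.3.3 (lmFit and eBayes, 3 residual degrees of freedom), with Benjamini-Hochberg adjustment over 13407 genes. The signals being background-subtracted already, no normexp correction was applied. For a probe undetected on both arrays of a tissue, a lower bound of the fold was taken, with each undetected value replaced by its array's lowest detected signal or kept if that was higher. The fit was checked on simulated data.

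The file headers put replicate 1 of all tissues on one slide and replicate 2 on another. Replicate differences correlated over genes at 0.11 (intestine and skin), 0.16 (intestine and spleen) and 0.21 (skin and spleen), and the slide was tried as a block. Replicate arrays correlated at 0.986 in intestine, 0.991 in skin and 0.996 in spleen. The array number limits the precision. All members, all tested receptor and proximal signalling genes, Ifng, and up to 4 of the largest passing differences each way of the other 2 gene lists could be named, and values are given for part of them. One item is not reported here. The members and lists were chosen with earlier results of these data known. Markers were named where they define a cell type and were detected on no array.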

Additional observations from a re-analysis of the deposited data

How the results depend on the processing

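In 17 alternative settings no member that passed changed sign. Of the passing members, 19 of 24 (intestine against spleen), 0 of 7 (skin against spleen) and 17 of 22 (intestine against skin) passed in every setting that tested them. Median scaling over all probes was chosen after seeing the data. The scaling moved the median of all genes between intestine and spleen, from which a member's difference can be read, to 0.21 with median scaling, -0.25 with the deposited scaling and -0.28 with median scaling over all probes, beside -0.04. Between skin and spleen it was 0.15, -0.12 and -0.19, beside 0.00447. With it the split of all passing genes moved. In intestine against spleen 2818 were higher and 3801 lower, and 5385 and 2678 with median scaling, 1976 and 5678 as deposited, and 1836 and 5895 with scaling over all probes. In skin against spleen 1765 were higher and 1533 lower, and 3571 and 1137, 1693 and 2999, and 1339 and 3773 (5112 genes) in the same order. In intestine against skin 2205 were higher and 3077 lower, and 1775 and 4051 as deposited. Of the members in skin against spleen, 1 was higher and 6 lower, and 2 and 5 with median scaling, 1 and 13 (14 in all) as deposited, and 1 and 14 (15 in all) with scaling over all probes. The median of the 23 members detected everywhere was -0.50 as deposited and -0.53 with scaling over all probes in intestine against spleen, and -0.43 and -0.49 in skin against spleen. In intestine against skin it was 0.092 with median scaling and 0.12 with averaged probes. Without the filter on dim probes 1820 genes passed in skin against spleen. The cause of these shifts was not tested.

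Leaving out 1 array at a time, 4080 to 6696 genes and 21 to 25 members passed in intestine against spleen, 486 to 4746 genes and 0 to 9 members in skin against spleen, and 3992 to 5694 genes and 19 to 22 members in intestine against skin. The lowest counts of genes against spleen came without a spleen array (4080 without replicate 1 and 4098 without replicate 2 for intestine, 540 and 486 for skin), and 985 passed for skin without skin replicate 1 and 2040 without skin replicate 2. The member medians ran over -0.32 to 0.16, -0.24 to -0.11 and -0.12 to 0.06 in these comparisons. With the replicate block, which is the slide, 24, 9 and 22 members and 7101, 3995 and 5716 genes passed, no member lost its call, and Ddx58 and Gbp3 gained one in skin against spleen.

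Some values that did not pass took the other sign in at least 1 alternative. In skin against spleen they were, with median scaling, Ifit3 (0.053), Isg20 (0.17) and Ifitm3 (0.099), with scaling over all probes Irf7 (-0.032), Irf8 (-0.12), Usp18 (-0.26), Ifi35 (-0.067), Parp14 (-0.22), Trex1 (-0.042) and Igtp (-0.17), as deposited Irf8 (-0.051), Usp18 (-0.19), Parp14 (-0.15) and Igtp (-0.096), and with averaged probes Parp14 (-0.23) and Samhd1 (0.15). Leaving out 1 array at a time, Isg20 ran over -0.37 to 0.088, Ifitm3 over -0.38 to 0.15, Irf8 over -0.12 to 0.31, Usp18 over -0.19 to 0.34, Oasl1 over -0.0076 to 0.10 and Adar over -0.14 to 0.081. In intestine against spleen they were Ifi35 (-0.34 with scaling over all probes, -0.31 as deposited, -0.028 to 0.25 without 1 array), Rsad2 (-0.39 to 0.25 without 1 array) and Iigp1 (-0.020 to 0.17 without 1 array). In intestine against skin they were Bst2 (0.092 with median scaling, -0.14 to 0.056 without 1 array), Stat2 (-0.025 as deposited, -0.30 to 0.60 without 1 array, of which 0.60 passed without skin replicate 2), Ddx58 (0.073 with averaged probes) and Irf9 (0.12 with averaged probes, -0.19 to 0.055 without 1 array).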
